A study of Mus musculus with 18 samples.

Results

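The genes described here were 10 genes of endosomal recycling that are often studied together in the traffic of integrins, namely the GTPases Rab11a, Rab11b, Rab4a and Rab21, the Rab11 family interacting proteins Rab11fip1, Rab11fip2, Rab11fip3 and Rab11fip5, and the sorting proteins Snx17 and Vps35. They were chosen by symbol and not by a cut on their values, although earlier results of these data were known. They made up 10 of the 55487 gene identifiers counted. The RNA came from cultured mouse embryonic fibroblasts (MEFs), the adherent cells that grow from dissociated embryo tissue, kept for 24 h in serum-containing growth medium without added uracil (control), with 10 µM uracil or with 30 µM uracil. Uracil is a pyrimidine base set free when uridine phosphorylase-1 splits uridine, and the comparison of doses asked what the base does to transcript levels in these cells. There were 6 libraries at every dose, described by the study as biological replicates and numbered 1 to 6, so each number held 1 library of every dose. The strain, sex, passage and embryos of origin of the MEFs are not given in the sources used here, nor is the meaning of a number beyond a replicate. MEF cultures are a mixture of embryonic cells, and in bulk RNA fewer cells of a type and less RNA per cell cannot be told apart.

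Integrins and other surface receptors are taken up continuously, and most of what is internalised is sent back to the plasma membrane rather than to lysosomes. Rab GTPases mark the membranes on this journey. Rab4 acts on a short loop from early endosomes, Rab11 acts on the longer route through the perinuclear recycling compartment, and Rab21 binds integrin alpha chains directly. The Rab11 family interacting proteins couple active Rab11 to motors, membranes and cargo. SNX17 binds a short motif in the tails of beta integrins and LRP1 and hands these cargoes to the retriever complex, while VPS35 is the core of retromer, which retrieves other cargoes from endosomes.

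The libraries were not alike in quality. Counts assigned to genes ranged from 3.96 to 20.8 M, and the share of read pairs left unaligned was 54.2% in control replicate 1, 37.9% in 30 µM replicate 6, 5.24% in 10 µM replicate 6 and 1.72% to 3.59% in the other 15 libraries. The study's methods say that a control and a 30 µM sample were removed because they held human RNA. Control replicate 1 and 30 µM replicate 6 had by far the most unaligned pairs of those doses, but the labels do not say which were removed. All 18 libraries were therefore used. Values that moved most when control replicate 1, 30 µM replicate 6 and 10 µM replicate 6 were left out are also given without these 3 libraries. The study removed no 10 µM sample, so the other 15 libraries also lack 1 that it kept. The summed level of 8 fibroblast markers was 25275 to 57067 CPM (counts scaled to a common library size, with TMM factors between libraries), whereas the sums of 4 endothelial and 5 haematopoietic markers reached at most 11.8 and 5.73 CPM, with Adgre1 at 0 in 13 libraries. Of 6 epithelial markers, Krt19 alone was abundant (53.2 to 90.5 CPM) and Esrp1 was at 0 in 11 libraries.

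Rab11a and Rab11b encode closely related proteins, and whether their reads could be told apart decides how far their counts can be read separately. Aligned over their coding sequences (648 and 654 bases in the GENCODE M39 canonical transcripts), they were identical at 75.7% of bases. Over 574 ungapped windows of 75 bases, the length of 1 sequencing read in the study, the fewest mismatches between them was 11, the median was 18 and 0 windows had none. The longest stretch they shared without a mismatch was 14 bases, agcaagagtaccat, at coding bases 118 to 131 of both. The lines that follow show the 120 coding bases around it (97 to 216), read 5′ to 3′ from GRCm39, with capitals at the 27 positions where the genes differ.
Rab11a: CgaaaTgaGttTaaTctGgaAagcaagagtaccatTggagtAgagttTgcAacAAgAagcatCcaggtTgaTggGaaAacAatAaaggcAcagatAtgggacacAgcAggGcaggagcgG
Rab11b: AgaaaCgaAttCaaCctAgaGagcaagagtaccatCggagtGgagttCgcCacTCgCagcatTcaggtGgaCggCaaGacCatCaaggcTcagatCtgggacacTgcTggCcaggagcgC
The differences fell every few bases through the stretch, so reads within these coding sequences could be told apart between Rab11a and Rab11b. Rab4a and Rab21 were further away, with 59.1% and 58.1% identity to Rab11a, and the longest run that Rab11a shared with Rab21 was 17 bases (atatgggacacagcagg, coding bases 190 to 206 of Rab11a and 208 to 224 of Rab21).

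Over whole transcripts, coding sequence included, sharing with other genes was uneven. Where in the transcripts the shared words lie was not determined. Of the 8195 distinct 75-base words in Rab11b exons, 512 (6.25%) also occurred in exons of other genes, among them the pseudogene Rab11b-ps2, and Rab11a shared 33 of 10254 words (0.322%) with the overlapping transcript Gm55884. Pairs that fit several places were not counted, so these parts of Rab11b could be undercounted. Rab4a, Rab21, Rab11fip2, Rab11fip3, Snx17 and Vps35 shared 0 such words with other genes. The kit kept the strand of the RNA, but the strand setting of the counting is not given in the sources used here, so counts of members that overlap a gene on the other strand, such as Snx17 with Eif2b4 and Vps35 with Orc6, are uncertain to that extent.

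On GRCm39, the GTPase genes lie at chr9:64581321-64645054 (Rab11a, ENSMUSG00000004771, minus strand), chr17:33961458-33979504 (Rab11b, ENSMUSG00000077450, minus), chr8:124532545-124568842 (Rab4a, ENSMUSG00000019478, plus) and chr10:115122974-115151521 (Rab21, ENSMUSG00000020132, minus). The interacting protein genes are all on the minus strand, at chr8:27628801-27664682 (Rab11fip1, ENSMUSG00000031488), chr19:59891316-59932110 (Rab11fip2, ENSMUSG00000040022), chr17:26206406-26288534 (Rab11fip3, ENSMUSG00000037098) and chr6:85311943-85351690 (Rab11fip5, ENSMUSG00000051343). Snx17 (ENSMUSG00000029146) lies at chr5:31350536-31358172 on the plus strand and Vps35 (ENSMUSG00000031696) at chr8:85986024-86026431 on the minus strand. All 10 are annotated as protein-coding genes, and the counts are of whole genes.

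All 10 genes were transcribed in these cells at every dose and passed the filter on low counts, as 13865 genes did in all. The most abundant was Vps35, the retromer core, at 198.8 ± 18.9 CPM (SD, n = 18 libraries), and the least was Rab11fip1, known as the Rab-coupling protein that links Rab11 to integrin recycling, at 6.75 ± 1.42 CPM. Behind these levels stood 872 to 4247 counts per library for Vps35 and 25 to 123 for Rab11fip1. Rab4a was the next thinnest, with 37 to 271 counts. In control replicate 1, the shallowest library, the exact Poisson 95% interval was 4.36 to 9.94 CPM for Rab11fip1 (25 counts) and 7.02 to 13.7 CPM for Rab4a (37 counts), which covers counting error only.

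Compared per kilobase of the canonical transcript, the level was 57.1 CPM per kb for Vps35, 42.3 for Snx17 and 34.5 for Rab11a. A middle group held Rab11fip5 at 15.6 CPM per kb, Rab11fip2 at 13.9 and Rab21 at 13.3, followed by Rab4a at 7.58, Rab11b at 7.58, Rab11fip3 at 5.63 and Rab11fip1 at 0.847. Rab4a and Rab11b did not differ in this order beyond their spread, nor did Rab11fip2 and Rab21 over all 18 libraries, where the coefficient of variation of Rab21 was 23.9%. The counts take in all annotated exons of a gene, not only those of the canonical transcript, and with the length of all annotated exons Rab11a came to 8.79 CPM per kb, below Rab21 (11.98) and Rab11fip5 (15.6). The places that held with either length were Vps35 and Snx17 at the top, Rab11a above Rab11b, and the interacting proteins in the order Rab11fip5, Rab11fip2, Rab11fip3 and Rab11fip1, although by all exons Rab11fip2 (3.41) and Rab11fip3 (3.32) lay side by side.

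Rab11a was the more abundant of the Rab11 paralogues. It made up 82.5% ± 0.974 of their summed level per kb of canonical transcript (SD, 15 libraries), with a range of 80.7% to 84.1%. Over all 18 libraries it was 81.8% ± 2.31, and the lowest value, 74.1%, was in 30 µM replicate 6. With the length of all annotated exons, an alternative chosen after seeing the data, the share was 57.5% ± 1.65 over the 15 libraries (range 54.4% to 60.1%) and 56.4% ± 3.54 over 18, with a lowest value of 45.0%.

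The median spread of these genes between libraries was below that of all genes tested. The sets were not matched for level, so a lower spread is not shown to be particular to these genes. The standard deviation of log2 CPM over 18 libraries had a median of 0.14 among the 10 genes and 0.22 among all 13865 genes tested, and over the 15 libraries with few unaligned pairs it was 0.087 against 0.14 (13888 genes). Within those 15 libraries the coefficient of variation of CPM was 4.56% to 9.72% for 9 of the genes. Rab11fip1 stood apart at 20.3%. Over all 18 libraries the coefficient was 28.4% for Rab11fip3, 23.9% for Rab21 and 21.0% for Rab11fip1.

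**Figure D1:**
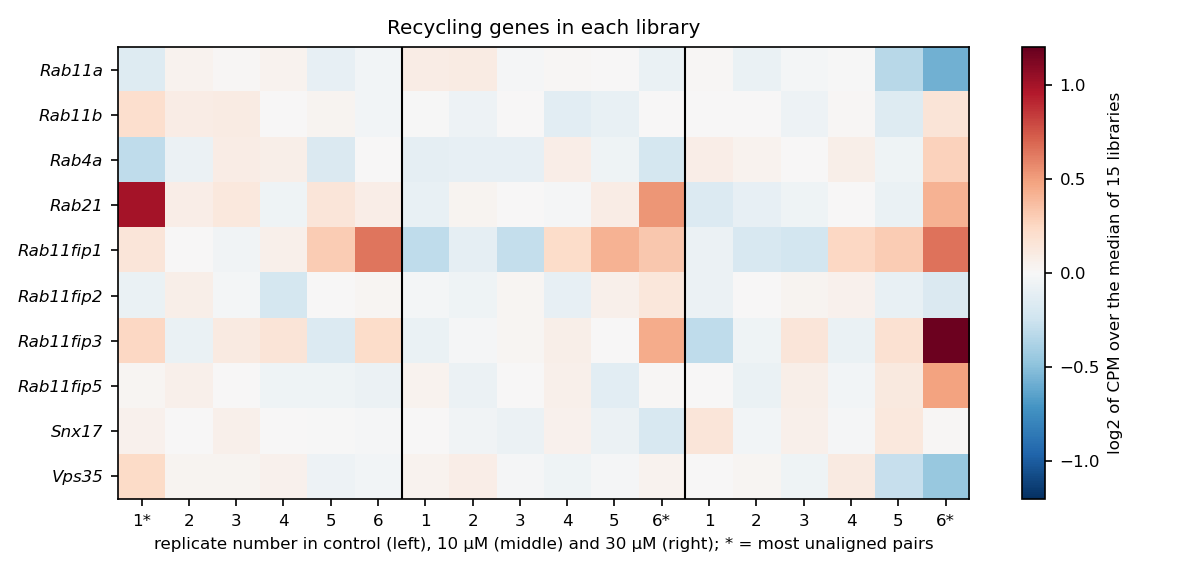
Each cell is the log2 of a gene's CPM in 1 library over its median in the 15 libraries with few unaligned pairs, with controls on the left, 10 µM in the middle and 30 µM on the right, and asterisks at the 3 libraries with the most unaligned pairs. The 15 libraries span −0.33 to 0.64 and the 3 span −0.57 to 1.18, with the deepest colours at Rab21 in control 1 and Rab11fip3 in 30 µM 6.

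None of the 10 genes passed the test between doses. In edgeR's quasi-likelihood test with Benjamini-Hochberg adjustment over 13865 genes, 0 of the 10 were called at 10 µM against control, where 0% of all genes were. The same held for the higher dose, with 0 of the 10 and 0% of all genes called at 30 µM against control, and for the doses set against each other (0 of the 10 and 0%). At an unadjusted p under 0.05 the count was again 0 of 10 in each contrast, where 0.692%, 4.29% and 2.33% of all genes were below it. With no difference between doses a share of about 0.05 would be below it, so the p-values ran high, most of all at 10 µM against control. The 0 of 10 therefore does not show that these genes were unchanged. This fit does not use the replicate number. With number as a block over the 15 libraries with few unaligned pairs, 1, 3 and 1 of the 10 were below 0.05 (edgeR). The shares of all genes were then 3.72%, 4.35% and 4.84%, and none of the 10 passed adjustment. DESeq2 and limma voom also called 0 of the 10 and 0 of all genes in each contrast. The smallest adjusted p among the 10 was 0.931 by edgeR, 0.972 by DESeq2 and 0.728 by voom. The median log2 fold change of the 10 was −0.032, −0.037 and 0.052 in the same order, beside 0.0059, 0.012 and 0.0057 over all genes tested. The contrasts share libraries and are not independent of each other.

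**Figure D2:**
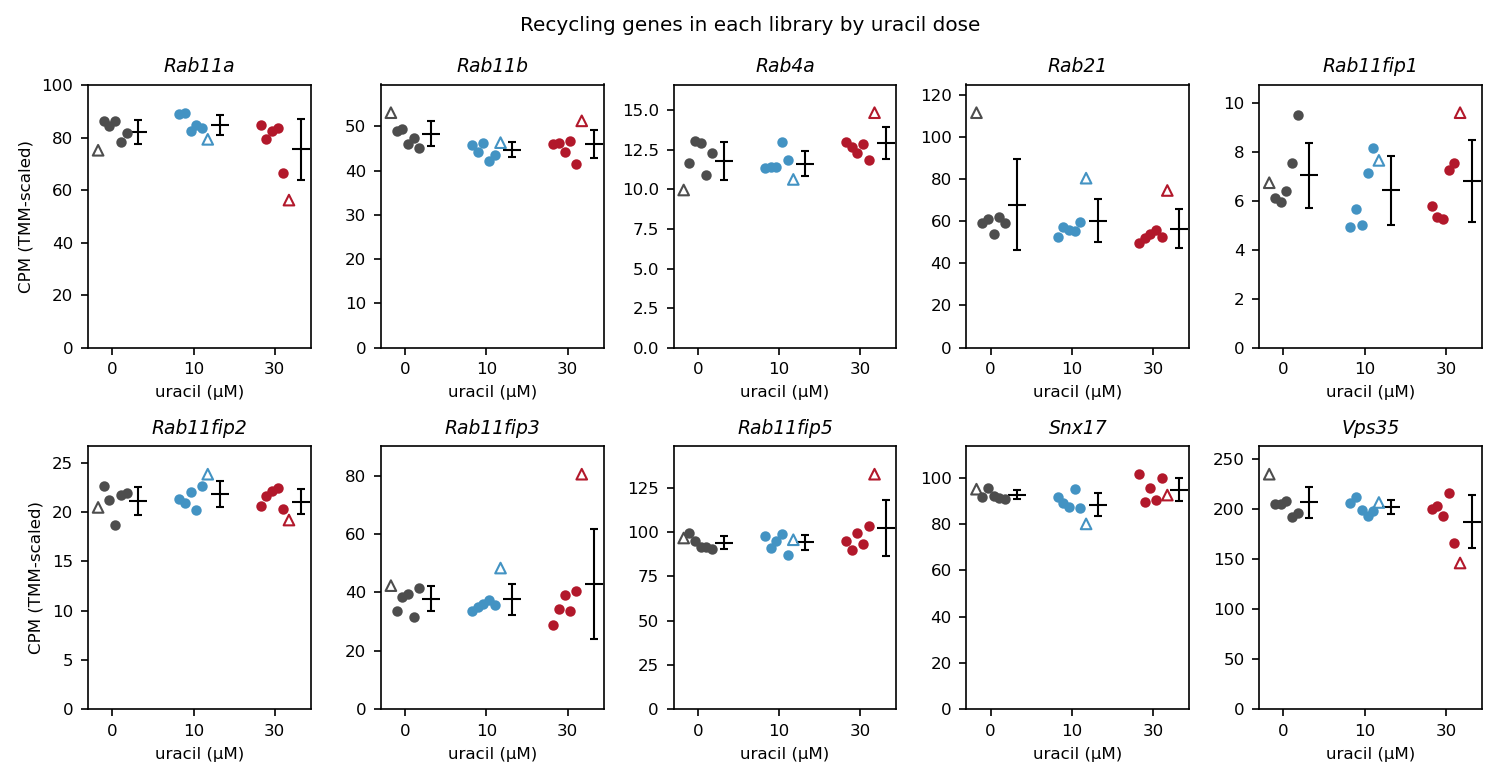
CPM of each gene in every library (vertical axes, from 0) by uracil dose, with filled circles for the 15 libraries with few unaligned pairs, open triangles for control 1, 10 µM 6 and 30 µM 6, and the mean ± SD of all 6 libraries as black bars. The circles of the 3 doses overlap in all 10 panels, and the triangles set the wide bars of Rab21 and Rab11fip3.

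Of the GTPases, Rab11a ran from 75.1 to 86.2 CPM in controls (median 83.2), from 79.3 to 89.5 at 10 µM (median 84.1) and from 56.2 to 84.7 at 30 µM (median 80.9). The ranges overlapped, and the values at 30 µM had a tail of low libraries, 66.5 CPM in replicate 5 and 56.2 CPM in replicate 6. Replicate 5, kept among the 15 libraries, had the highest share of low-quality pairs of all 18 (13.1%). Its share of unaligned pairs (3.59%) was the highest of the 15. In 6 of 6 replicate numbers Rab11a was lower with 30 µM than with 10 µM, by −0.17 ± 0.083 (log2 fold change ± SE, 95% interval −0.34 to 0.0089, unadjusted p = 0.0616 and adjusted p = 1.00, edgeR). In numbers 3 and 4 the gap was small, 82.4 against 82.6 CPM and 83.6 against 84.6 CPM. Against control, Rab11a at 30 µM was at −0.12 ± 0.084. Without the 3 libraries with most unaligned pairs the differences were −0.12 ± 0.057 against 10 µM (unadjusted p = 0.0541, edgeR) and −0.080 ± 0.058 against control, and without 30 µM replicate 6 alone the latter was −0.052.

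Rab11b showed no such tail. It ran from 45.2 to 53.1 CPM in controls (median 48.1), from 42.2 to 46.3 at 10 µM (median 45.0) and from 41.5 to 51.2 at 30 µM (median 46.1). Most 10 µM libraries lay below most controls, and the log2 fold change at 10 µM was −0.11 ± 0.057 (95% interval −0.23 to 0.0097, unadjusted p = 0.0695 and adjusted p = 1.00, edgeR), and the treated library was above its control in 1 of 6 numbers. At 30 µM it was −0.072 ± 0.057. In the 15-library fit the difference at 10 µM was −0.099 ± 0.046 (unadjusted p = 0.0468, adjusted p = 0.998, edgeR).

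Rab4a, the GTPase of the short recycling loop, ran from 9.97 to 13.1 CPM in controls (median 11.97), from 10.6 to 12.997 at 10 µM (median 11.5) and from 11.9 to 14.9 at 30 µM (median 12.8). Its highest value was in 30 µM replicate 6 and its lowest in control replicate 1, both libraries with many unaligned pairs. At 30 µM against 10 µM the log2 fold change was 0.15 ± 0.078 (unadjusted p = 0.0730), higher in 5 of 6 numbers, and without the 3 libraries it was 0.084 ± 0.069 (unadjusted p = 0.242).

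Rab21, the integrin-binding GTPase, ran from 53.8 to 111.5 CPM in controls (median 60.2), from 52.5 to 80.4 at 10 µM (median 56.6) and from 49.9 to 74.6 at 30 µM (median 53.3). In every dose the highest value came from the library with the most unaligned pairs, and the next highest was 61.9, 59.4 and 55.9 CPM. The log2 fold change at 30 µM against control was −0.25 ± 0.16 over 18 libraries (95% interval −0.58 to 0.077, unadjusted p = 0.126, edgeR). Without those 3 libraries the means were 59.0 ± 3.14, 56.1 ± 2.54 and 52.9 ± 2.23 CPM (SD, n = 5 per dose), and the difference at 30 µM was −0.17 ± 0.049 (95% interval −0.27 to −0.065, unadjusted p = 0.00304, adjusted p = 0.944, edgeR). This was the smallest unadjusted p of the 10 genes in the 15-library fit, where 1 of 10 genes (Rab21) was below 0.05 at 30 µM against control, 1 of 10 (Rab11b) at 10 µM against control and 0 of 10 at 30 µM against 10 µM, beside 4.33%, 4.72% and 1.88% of all genes. Neither gene passed after adjustment, and the values of control replicate 4 (53.8 CPM) and of 30 µM replicates 3 and 4 (53.9 and 55.9 CPM) overlapped.

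**Figure D3:**
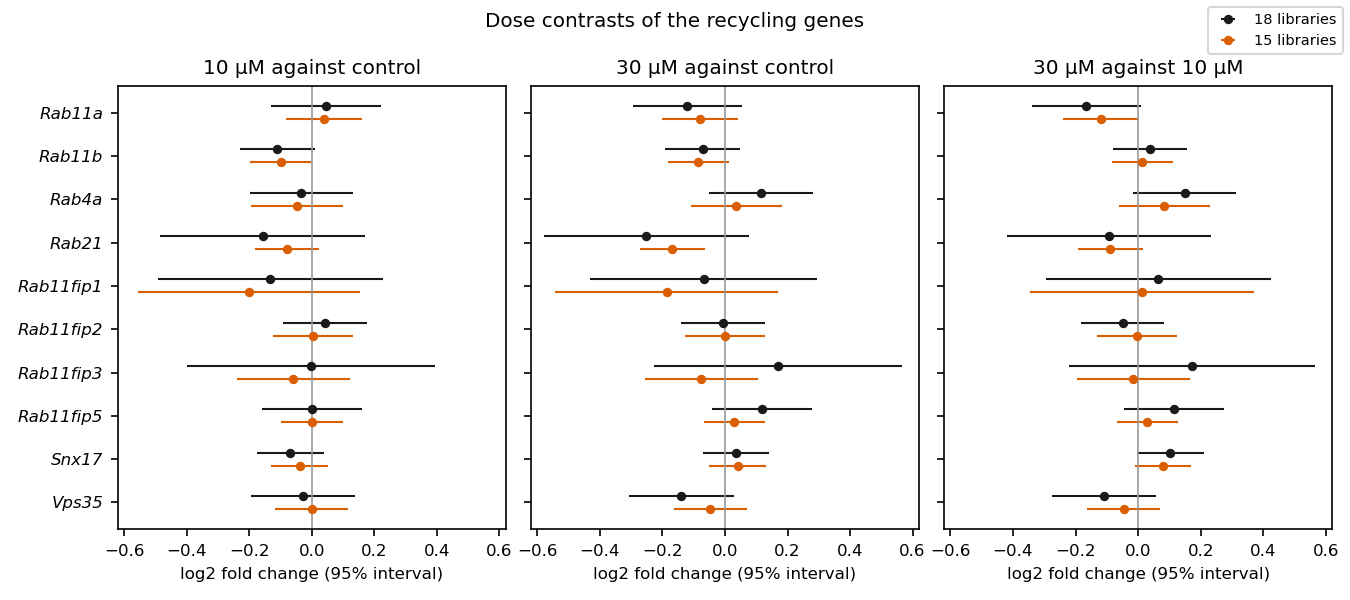
Log2 fold changes with 95% intervals (horizontal axes) of the 10 genes in the 3 dose contrasts, from all 18 libraries (black) and from the 15 with few unaligned pairs (orange). All black intervals cross 0, and of the orange ones those of Rab21 at 30 µM against control and Rab11b at 10 µM against control lie below it.

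Among the Rab11 family interacting proteins, Rab11fip2, which binds myosin V motors, was the most even across doses. It ran from 18.7 to 22.7 CPM in controls (median 21.5), from 20.2 to 23.8 at 10 µM (median 21.7) and from 19.2 to 22.5 at 30 µM (median 21.1). Its log2 fold change at 30 µM against control was −0.0064 ± 0.064 with a 95% interval of −0.14 to 0.13.

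Rab11fip5, also called Rip11, ran from 90.3 to 99.4 CPM in controls (median 93.4), from 87.2 to 98.9 at 10 µM (median 95.4) and from 90.1 to 132.8 at 30 µM (median 97.3). Its single high value was in 30 µM replicate 6, and the 30 µM contrast went from 0.12 ± 0.077 with that library to 0.030 ± 0.047 without the 3 libraries. Rab11fip3, which also binds dynein and acts in cell division, ran from 31.7 to 42.3 CPM in controls (median 39.0), from 33.5 to 48.3 at 10 µM (median 35.8) and from 28.8 to 80.5 at 30 µM (median 36.7). Here, too, replicate 6 was the highest of both uracil doses. The log2 fold change at 30 µM was 0.17 ± 0.19 over 18 libraries and −0.075 ± 0.086 without the 3.

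Rab11fip1 ran from 5.93 to 9.51 CPM in controls (median 6.56), from 4.94 to 8.17 at 10 µM (median 6.40) and from 5.24 to 9.59 at 30 µM (median 6.53). The doses overlapped almost completely, and the log2 fold changes were −0.13 ± 0.17 at 10 µM and −0.068 ± 0.17 at 30 µM. Its spread relative to the mean within each dose was the widest of the 10 genes over the 15 libraries.

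The sorting proteins were the most abundant members per kilobase. Snx17 ran from 90.8 to 95.4 CPM in controls (median 91.8), from 80.1 to 95.1 at 10 µM (median 88.1) and from 89.3 to 101.6 at 30 µM (median 94.2). In 5 of 6 numbers it was above its 10 µM library when the dose was 30 µM, by 0.10 ± 0.051 (95% interval −0.0030 to 0.21, unadjusted p = 0.0562 and adjusted p = 1.00, edgeR), with ranges that overlapped. Vps35 ran from 191.9 to 234.9 CPM in controls (median 204.8), from 192.8 to 212.2 at 10 µM (median 202.2) and from 146.1 to 215.6 at 30 µM (median 196.8). As with Rab11a, its lowest values were in 30 µM replicates 5 and 6 (165.6 and 146.1 CPM). The log2 fold change at 30 µM against control was −0.14 ± 0.080 (unadjusted p = 0.0976), and −0.046 ± 0.056 without the 3 libraries.

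The replicate number separated 1 of the 10 genes, a share no higher than that of all genes, so differing by number was not particular to this set. In an edgeR F test of number in a model with dose, Rab11fip1 was called with an adjusted p of 0.00462, while 12.6% of all 13865 genes were called. In number 1 its values with 0, 10 and 30 µM uracil were 6.73, 4.94 and 5.80 CPM, in number 2 they were 6.10, 5.66 and 5.35, and in number 3 they were 5.93, 4.99 and 5.24. Number 4 gave 6.38, 7.13 and 7.26 CPM, number 5 gave 7.55, 8.17 and 7.54, and number 6 gave 9.51, 7.65 and 9.59. Apart from control replicate 1 (6.73 CPM, above control replicate 4 at 6.38), the libraries of numbers 1 to 3 lay below those of numbers 4 to 6. Within number 1 the values ran from 4.94 to 6.73 CPM and within number 6 from 7.65 to 9.59. The means of numbers 6 and 3 (8.92 ± 1.10 and 5.39 ± 0.490 CPM, SD, n = 3) differed 1.66-fold. Without the 3 libraries with many unaligned pairs, the adjusted p was 0.00293 and number 6, then 1 library, was 1.77-fold above number 1, beside 20.8% of 13888 genes called.

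Markers of mesothelial cells, which line body cavities and can be carried into embryonic cultures, moved with the same numbers. All 4 (Upk3b, Msln, Wt1 and Lrrn4) were detected in every library. Their summed level was 27.2 to 45.2 CPM in number 1, 39.8 to 43.2 in number 2, 44.9 to 47.9 in number 3, 102.2 to 108.4 in number 4, 154.4 to 173.9 in number 5 and 119.6 to 136.3 in number 6. The sum of the 6 epithelial markers also ran higher in numbers 4 and 5 (82.2 to 101.3 CPM) than in numbers 1 to 3 (58.2 to 78.2 CPM), with 63.3 to 83.1 CPM in number 6. Krt19 made up most of that sum, with means of 57.0 to 60.6 CPM in numbers 1 to 3, 80.6 in number 4, 77.6 in number 5 and 62.2 in number 6. Epcam, Krt18 and Esrp1 were lowest in number 5, at 0.0725, 0.169 and 0.0227 CPM. Krt8 had 2.75 to 4.30 CPM in numbers 1 to 3 and 9.44, 9.32 and 7.15 in numbers 4, 5 and 6. Cdh1 had 0.962 to 1.37 CPM against 2.02, 2.40 and 2.14. Among the fibroblast markers, the growth factor receptor Pdgfrb had means of 220 to 238 CPM in numbers 1 to 3 and 174, 147 and 142 in numbers 4, 5 and 6. Its relative Pdgfra had 48.0, 41.3 and 37.5 CPM in numbers 1 to 3 against 28.0 to 31.2 in numbers 4 to 6. Vim also ran lower there (5052 to 5373 against 5674 to 5828 CPM). The rest were mixed. Dcn had 108.5, 89.9, 65.4, 174.4, 209.3 and 66.6 CPM in numbers 1 to 6, and Thy1 45.7, 43.8, 43.9, 48.3, 39.9 and 47.5. Col3a1 had 4035 to 4516 CPM in numbers 1 to 3 against 3134 to 4047. Col1a1 and Col1a2 were highest in number 6 (17584 and 10492 CPM), but 8311 and 8719 CPM in its library with few unaligned pairs. The part of other cell types in the Rab11fip1 difference was not tested. Within a dose these sums ranged widely as well, for mesothelial markers from 27.2 to 158.1 CPM in controls, 43.2 to 154.4 at 10 µM and 42.6 to 173.9 at 30 µM.

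**Figure D4:**
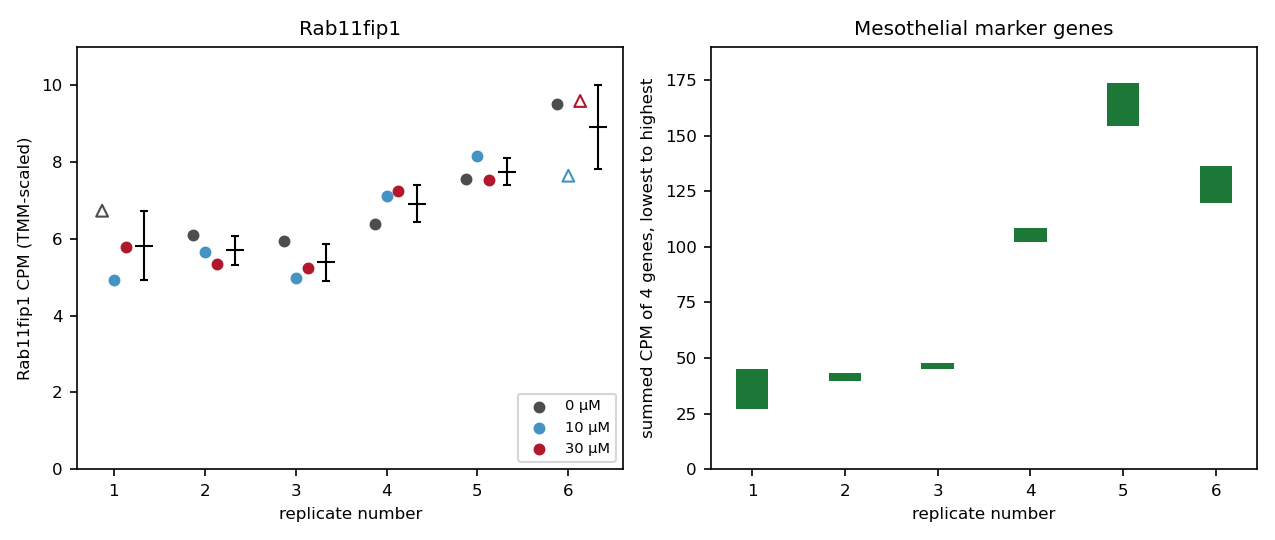
Left, Rab11fip1 CPM in every library by replicate number, coloured by dose, with open triangles for the 3 libraries with most unaligned pairs and the mean ± SD of the 3 libraries of a number in black. Right, bars from the lowest to the highest summed CPM of 4 mesothelial markers within each number. Both panels sit low in numbers 1 to 3 and higher in numbers 4 to 6.

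Rab11fip3 was second by this test (adjusted p = 0.0956), with a mean of 56.7 ± 20.9 CPM (SD, n = 3) for number 6 against 34.3 ± 0.736 CPM for number 2. Without the 3 libraries with many unaligned pairs, number 6 was at 41.3 CPM in its remaining library and the adjusted p was 0.149. Rab11fip3 passed the threshold with DESeq2 (adjusted p = 0.0142), with voom (0.0017) and without control 1 and 30 µM 6 (0.0217), and voom called Rab21 too (0.0020). Leaving out control replicate 1 alone, or control replicate 6 alone, brought Rab11fip3 past the threshold (adjusted p = 0.0300 and 0.0137), and leaving out control replicate 1 did so for Rab21 as well (0.0324). The other 8 genes had adjusted p-values of 0.388 to 0.924, and none of the GTPases or sorting proteins differed more than 1.30-fold between the means of any numbers.

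The genes whose pattern over the 15 libraries came closest to Rab11fip1 were Epb41l4a, Bcr and Epb41. The root mean square difference of centred log2 CPM from Rab11fip1 was 0.077, 0.094 and 0.097, where the median over 13043 genes was 0.30 and the deviation of Rab11fip1 itself was 0.27. Over all 18 libraries the same values were 0.10, 0.20 and 0.14. The genes named here were picked as the closest of all, so lying far below the median follows from the choice. Rab11fip1 had 25 to 123 counts per library, and the part of counting error in the match was not tested. Closest to Rab11fip3 were Spindoc, Magi1 and Htra1 (0.078, 0.080 and 0.080 over 15 libraries, where Rab11fip3 itself deviated by 0.14). They were less alike over 18 libraries, at 0.24, 0.17 and 0.22.

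Around these genes, 86 others of the recycling machinery and its cargo were listed and 81 were tested. Between doses 0 of the 81 passed the threshold in any contrast by edgeR, and 0, 3 and 4 were below an unadjusted p of 0.05 in the same order of contrasts, beside 0.692%, 4.29% and 2.33% of all genes. Their median log2 fold changes were 0.0063, −0.0047 and 0.0094. The smallest p belonged to Ehd1, a membrane-shaping ATPase of recycling tubules that is named after its values were seen, with 157 ± 8.03 CPM in controls, 157 ± 7.58 CPM with 10 µM and 177 ± 15.4 CPM with 30 µM uracil (log2 fold change of the higher dose against control 0.17 ± 0.060, unadjusted p = 0.00977 and adjusted p = 0.931, edgeR). For 9 retromer subunits and sorting nexins the medians were 0.032, −0.047 and −0.057, and for 19 subunits of retriever, CCC and WASH, which act with SNX17, they were 0.018, 0.014 and 0.0083.

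By replicate number, 7 of the 81 genes passed, beside 12.6% of all genes, and over the 15 libraries 14 of the 81 did, beside 20.8%. The cargo receptors held 4 of the 7 among 9 tested (6 of 9 over 15 libraries), all surface proteins that the recycling genes are known to carry. Itgb3, the beta chain of the vitronectin receptor, had 50.6 ± 4.25 CPM in number 6 against 29.4 ± 0.293 in number 5 (adjusted p = 3.3e-04, edgeR). Itgb1, the chain common to most matrix-binding integrins, had 1356 ± 13.5 CPM in number 2 against 1094 ± 23.2 in number 5 (adjusted p = 0.0329). Lrp1, an endocytic receptor sorted by SNX17, had 2626 ± 1071 CPM in number 6 against 1211 ± 47.7 in number 4 (adjusted p = 0.0318), and without the 3 libraries with many unaligned pairs the extremes were number 6 (1624 CPM, 1 library) and number 1 (1079 CPM). The fourth was Itgb5. The remaining 3 were Trappc10 and Sh3bp5, both tied to the activation of Rab11, and the exocyst subunit Exoc6, among 17 effectors and regulators tested. Itgb5 and Exoc6 are named after their values were seen.

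The fibronectin receptor chain Itga5, the main integrin cargo considered with these genes, averaged 232 ± 132 CPM in the 6 controls, against 183 ± 41.8 and 230 ± 134 CPM with 10 and 30 µM uracil (SD). Without the 3 libraries with many unaligned pairs the means were 180 ± 39.0, 169 ± 24.9 and 176 ± 26.6 CPM (SD, n = 5). It was not called by number over 18 libraries (adjusted p = 0.279) but was over 15 (adjusted p = 2.3e-07), where number 3 was at 205 CPM and number 5 at 137 CPM. The transferrin receptor Tfrc, the usual reporter of recycling, was at 127 ± 19.9, 119 ± 5.92 and 108 ± 20.2 CPM across the doses, a log2 fold change of −0.23 ± 0.12 at 30 µM against control (unadjusted p = 0.0640 and adjusted p = 0.931, edgeR). In the 15-library fit it was −0.048 ± 0.049.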

How the data were processed

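RNA of 18 MEF cultures was sequenced as paired ends of 75 bases after ribosomal RNA depletion with a stranded kit. The authors deposited raw counts of read pairs for each Ensembl gene, made per the labels with FastQC, HISAT2, SAMtools 1.2 and HTSeq. The build named there is the human GRCh38, although the identifiers are of mouse genes, and the annotation release and strand setting are not given in the sources used here. The 5 closing entries for uncounted pairs (unaligned 1.72% to 54.2%, several places 5.59% to 20.2%, no gene 6.85% to 15.5%, low quality 4.79% to 13.1% and several genes 0.503% to 1.64% of pairs) entered neither the library sizes nor the tests. Of the count columns, 0 belonged to no sample. Groups came from the titles in the labels.

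Names, positions, lengths and sequences came from GENCODE M39 on GRCm39 (51731 of 55487 identifiers named), which need not be the build used for counting. The tests were run with edgeR 4.0.16 in R 4.3.3 (filterByExpr on dose, TMM, robust quasi-likelihood, dose as the only term, two-sided contrasts), with Benjamini-Hochberg adjustment over all genes tested and a threshold of 0.05. Replicate number was tested by F test in a model with dose. Standard errors are the log2 fold change over the root of its F statistic, and p-values measure the spread between these cultures. Log2 CPM used a prior count of 2. Alternatives were DESeq2 1.42.0, voom with quality weights in limma 3.58.1, RLE size factors, library totals, no filter, a minimum of 10 counts, the groups compared alone, each library left out, removal of 2 or 3 libraries, no dose term and the replicate number as a block. The scripts were tested on simulated data. The study states no count model.

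The members and lists were chosen with earlier results of these data known. All 10 members are named. From each other list, genes past the threshold between doses and the 2 with the smallest p by number if past it are named, with Itga5, Itgb1 and Tfrc. For the 2 members with the smallest p by number, the 3 genes of at least 1 CPM with the most similar pattern are named.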

Additional observations from a re-analysis of the deposited data

Results flagged for a closer look

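A library was set aside for a closer look where the gap between the highest or lowest of the 6 libraries of a dose and the next exceeded 0.625 of their range (Dixon's 95% limit). Of 33 groups tested, 10 met this. About 1 in 20, or 1.65, would be expected of independent groups. These were not independent, as the groups of a dose share the same 6 libraries, so the counts cannot be set against that number. Of these, 7 were among 30 groups of gene levels, all 7 in the 3 libraries with the most unaligned pairs. The other 3 were the unaligned shares by which those libraries are known. Unaligned pairs made up 54.2% of control replicate 1 and 37.9% of 30 µM replicate 6, but 5.24% of 10 µM replicate 6. Rab21 stood out in each of the 3, at 111.5 CPM in control replicate 1 (others 53.8 to 61.9), 80.4 CPM in 10 µM replicate 6 (others 52.5 to 59.4) and 74.6 CPM in 30 µM replicate 6 (others 49.9 to 55.9). Rab11fip3 was at 48.3 CPM in 10 µM replicate 6 (others 33.5 to 37.3) and at 80.5 CPM in 30 µM replicate 6 (others 28.8 to 40.4). In the last library Rab11fip5 was at 132.8 CPM (others 90.1 to 103.3) and Rab4a at 14.9 CPM (others 11.9 to 12.97). Each of these expression values was above the other libraries of its dose. The part of the unaligned reads in these values was not tested.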

How the results depend on the processing

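Under every alternative run, edgeR, DESeq2 or voom called 0 of the 10 genes and 0 of all genes in each dose contrast, and Rab11fip1 kept its call by replicate number. By number, 1 of the 10 genes and 1745 of all genes were called. DESeq2 called 2 and 2989 (Rab11fip3 added), voom 3 and 5959 (Rab11fip3 and Rab21 added), and the fit without control 1 and 30 µM 6 called 2 and 3287 (Rab11fip3 added). Of all genes, 2890 were called without the 3 libraries with most unaligned pairs and 2755 within numbers 2 to 5. With each library left out in turn the counts ran from 1 to 3 of the 10 genes and from 1272 to 3498 of all genes, the highest without control replicate 1 and the next, 2 and 3271, without control replicate 6. None of the fold changes whose sign turned was called. Rab11fip3 at 10 µM against control was 0.0071 with library totals, 0.012 with no filter, 0.030 without control 1 and 30 µM 6 and 0.00076 with the 2 groups alone, and at 30 µM it was −0.071 with voom, −0.075 in the 15-library fit and −0.071 in the 16-library fit. Rab11fip2 at 30 µM was 0.00075 with no filter, 0.012 with voom, 0.00044 with 15 libraries and 0.0047 with 16. Rab11fip5 at 10 µM was −0.00012 with RLE size factors, and in the 16-library fit Rab21 and Vps35 at 10 µM were 0.027 and 0.011. Leaving out single libraries gave −0.25 to 0.023 for Rab21, −0.082 to 0.028 for Rab11fip3, −0.010 to 0.027 for Rab11fip5 and −0.044 to 0.0064 for Vps35 at 10 µM, and −0.17 to 0.042 for Rab11fip1, −0.040 to 0.015 for Rab11fip2 and −0.097 to 0.26 for Rab11fip3 at 30 µM. The cause of these moves was not tested.

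With the replicate number as a block, 0 of the 10 genes and 0 of all genes were called between doses. The deviations of libraries that share a number correlated from −0.10 to 0.71 in 18 pairs, over 0.1 in 16, and in 9 of the 18 pairs the correlation was highest with the own number. Without the 3 libraries, 13 such pairs ran from −0.036 to 0.58 (median 0.32), and libraries of other numbers had a median of −0.10. As not every pair was over 0.1, the numbers were not taken as pairs in the main fit. By the medians over 15 libraries, those that share a number were still more alike than others. The main fit counts such differences between numbers as spread within a dose, which can hide small differences between doses. Over 18 libraries the pairs below 0.1 were those of control replicate 1 with 10 µM (−0.10) and with 30 µM (−0.034). Counts of numbers in which 1 dose was above another are descriptive only. With the block, Rab11a at 30 µM against 10 µM had an unadjusted p of 0.0316 (edgeR, 18 libraries), where 4.24% of all genes were below 0.05. In the 15-library fit with the block, 3 of the 10 genes were below 0.05 at 30 µM against control (Rab21 0.00897, Rab11b 0.0356 and Rab11a 0.0410), 1 at 10 µM (Rab11b 0.0200) and 1 at 30 µM against 10 µM (Rab11a 0.0128), beside 4.35%, 3.72% and 4.84% of all genes. None passed adjustment. With the block, Rab11fip3, Rab11fip5 and Rab11fip2 turned sign, to 0.032 and −0.017 at 10 µM and 0.021 at 30 µM with 15 libraries, and to 0.0057, −0.027 and 0.029 within numbers 2 to 5. Rab11fip3 at 30 µM against control was 0.0096 with the block over 15 libraries and 0.036 within numbers 2 to 5. Depth limits Rab11fip1 and Rab4a most, whose lowest counts were 25 and 37.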
